A study of Mus musculus with 8 samples.

Results

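Heme, the iron-holding ring that cytochrome P450 enzymes, catalase and hemoglobin carry, is built by a fixed chain of enzymes and taken apart by a shorter one. The 9 genes described here encode 7 enzymes of synthesis (Alas1, Alad, Uros, Urod, Cpox, Ppox and Fech) and the biliverdin reductases of breakdown (Blvra and Blvrb). They were picked by gene symbol among the non-control probes of the arrays and stand among 17567 genes tested, and all 9 passed the filter on dim signal. They had 18 probes between them, of 56605 on the array.

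Liver RNA was measured on 8 single-colour Agilent arrays, 4 from male mice aged 8 weeks (young) and 4 from male mice aged 80 weeks (old), each 8 h after acetaminophen. Both groups had received the drug. Livers without it were not analysed here, and an age difference present at rest cannot be told apart from one in the response to the drug. Strain, genotype and dose are not given in the sources used here. No label says that each array held a separate animal, and p-values therefore cover only the spread from sample to sample, some or all of which may be technical. The young arrays occupied row 1 of the single slide and the old arrays row 2, so slide row and age cannot be told apart.

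In hepatocytes, heme synthesis begins and ends in the mitochondrion. Alas1 joins glycine to succinyl-CoA in the rate-limiting step, Alad pairs the product into a pyrrole, and later enzymes, Uros and Urod among them, build and trim the ring in the cytosol. Cpox and Ppox oxidise the ring, and Fech inserts the iron. Heme oxygenases (Hmox1, inducible, and Hmox2, constitutive) open the ring to biliverdin, which Blvra and Blvrb reduce to bilirubin-type pigments. Much of the heme made in liver goes into P450 enzymes, the family that also oxidises acetaminophen, and free heme represses Alas1.

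Levels are given as log2 intensity after subtracting the 75th percentile of the same array, and a positive difference means a higher mean at 80 weeks than at 8 weeks. Hepatocyte transcripts were measured on every array, and the summed level of 10 tested hepatocyte genes, albumin among them, ran from 11.8 to 12.8 in young and from 12.2 to 12.98 in old livers. The arrays had 24540 to 28540 probes well above background. Young replicates 1 and 2 stood apart from the other 6 arrays, at -61.3 and -99.3 on a first principal component that held 49.1% of the variance, where the other arrays lay between 10.2 and 47.5. The differences of the members and of the other named genes and lists are therefore given with and without those 2 arrays.

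The sequences that follow show what was read for Alas1, the rate-limiting member, and the letters its promoter shares with another member. Alas1 was read by 3 separate probes of 60 bases on chromosome 9 of build mm9, minus strand. The probe used for the gene lay at chr9:106136284-106136343, and the 2 probes printed here lay further towards the start of the gene, at chr9:106141046-106141105 and chr9:106137803-106137862.
Alas1 probe A_66_P109200: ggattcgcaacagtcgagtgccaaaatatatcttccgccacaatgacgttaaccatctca
Alas1 probe A_52_P129756: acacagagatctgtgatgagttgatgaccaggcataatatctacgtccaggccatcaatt
NRF1, a factor of mitochondrial and respiratory genes, binds GCGC followed by any base and then TGCGC, and both strands of the RefSeq promoter windows (GRCm38.p6, 250 bases before to 50 after each start) were searched for them. Of the 9 members, 8 had windows in that table, 12 in all, and 2 members held a match, Alas1 and Uros. The Fech gene had no entry there. Across all 32851 windows, 4.60% held a match. The excerpts below are 30 bases each on the minus strand, with the matched letters in capitals. The Alas1 matches began at -224 and -195 from the more downstream of its listed starts. Counted from another listed start, the same matches began at 0 and 29, so they lay at and after that start.
Alas1, chr9:106247935-106247964: gcttcggcgcGCGCGTGCGCgcggcaggcc
Alas1, chr9:106247906-106247935: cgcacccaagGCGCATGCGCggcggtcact
Uros, chr7:133709323-133709352: cggtcacactGCGCCTGCGCgagtcccgcc
The E-box letters CACGTG were in windows of Alad, Urod and Uros and in 7.15% of all windows, and the antioxidant response letters TGACNNNGC in the Blvra window and in 12.4% of all windows. Both were searched on both strands, and a match describes letters only.

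Every one of the 9 enzymes had a positive mean difference, so the old livers held on average more of each transcript, by 0.19 to 0.95 on the log2 scale, but none passed the test. In bulk tissue, fewer cells of a type and less RNA per cell cannot be told apart. At an adjusted p below 0.05, 0 of 9 members were called, where 63 of 17567 genes (0.359%) were, 0.33% higher and 0.0285% lower. The members' adjusted p ran from 0.279 to 0.608. At an unadjusted p below 0.05, limma gave 3 members as higher (Alad, Cpox and Fech) and 0 as lower, against 7.92% of all genes higher and 6.14% lower. The median difference was 0.44 over the members and 0.02 over all genes, 52% of which were positive. Without young replicates 1 and 2 all 9 differences kept a positive sign, with a median of 0.25 where that over all genes was -0.06.

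**Figure D1:**
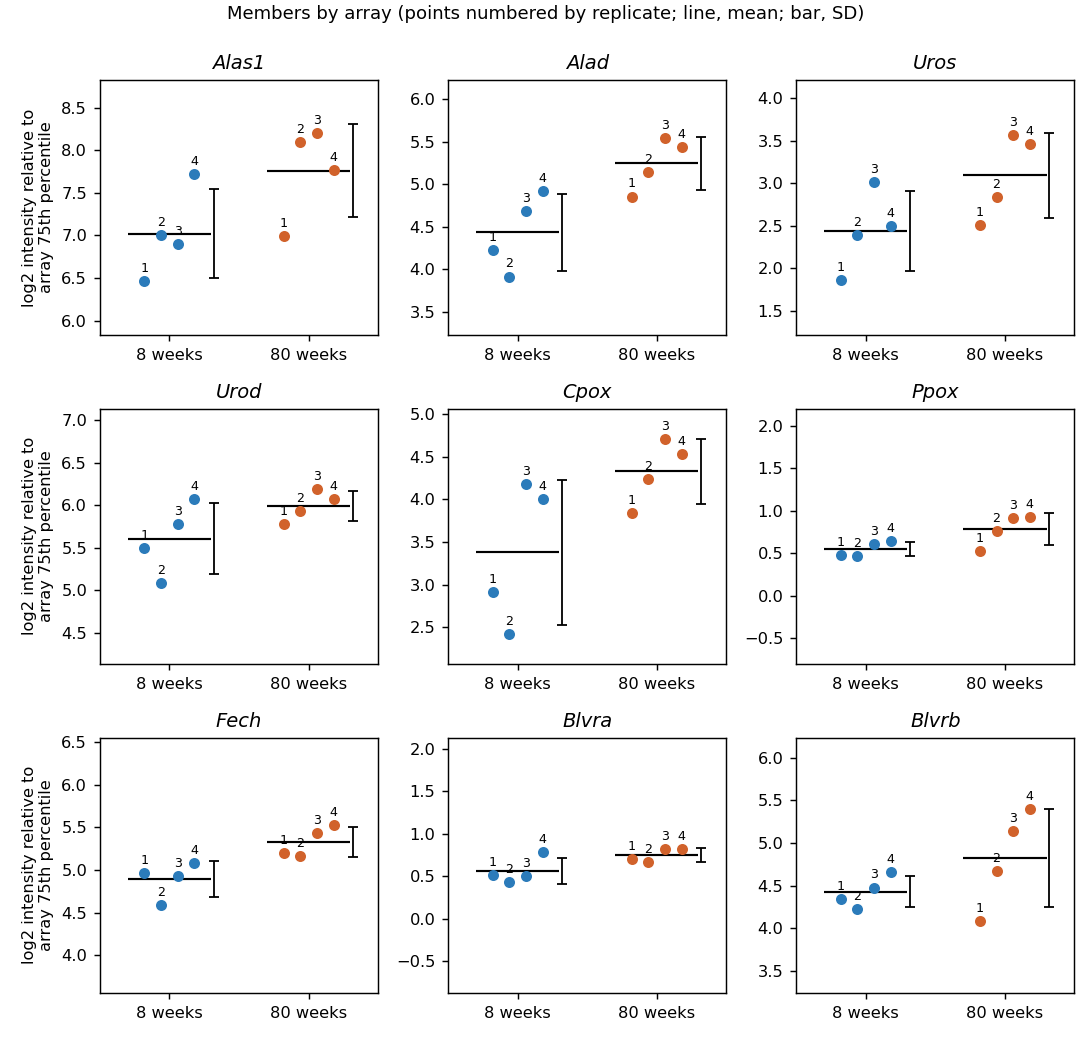
Log2 intensity relative to the array's 75th percentile for the 9 members, with 8-week and 80-week arrays as points numbered by replicate, the group mean as a line and the SD as a bar (n = 4 each; every panel spans the same log2 range). Old replicates 3 and 4 hold the highest value of every member, and young replicate 2 the lowest of 6 members.

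Alas1, the first and rate-limiting enzyme, was at 6.46, 7.0, 6.90 and 7.72 in young replicates 1 to 4 and at 6.99, 8.09, 8.2 and 7.77 in old replicates 1 to 4. Old replicate 1 lay among the young livers and young replicate 4 next to old replicate 4, so the groups overlapped. The means were 7.02 ± 0.52 and 7.76 ± 0.55 (SD, n = 4 each), a difference of 0.74 (SE 0.34, 1.67-fold, adjusted p = 0.362). The 95% confidence interval ran from -0.02 to 1.5, up to a 2.83-fold higher level. Without young replicates 1 and 2 the difference was 0.45 (adjusted p = 0.753).

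The other Alas1 probes, whose sequences are printed above, gave a like pattern over the arrays. Probe A_66_P109200 differed by 0.97 (SE 0.45) and probe A_52_P129756 by 1.07 (SE 0.43), with adjusted p over probes of 0.369 and 0.328. On all 3 Alas1 probes young replicate 1 was the lowest array, and old replicates 2 and 3 were the highest pair. The size of the difference thus varied from 0.74 to 1.07 between readings of the same transcripts.

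**Figure D2:**
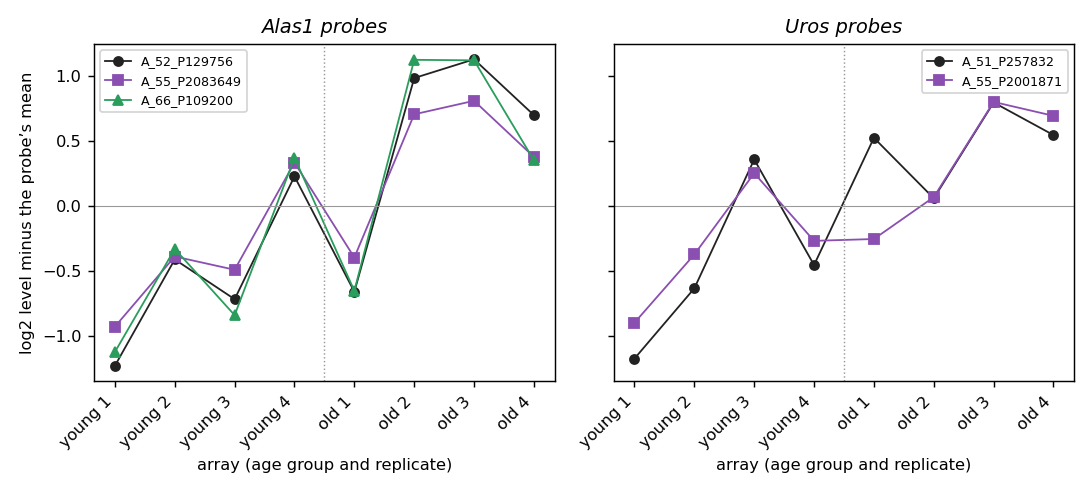
Log2 level minus the probe's own mean on each of the 8 arrays, for the 3 Alas1 probes and the 2 tested Uros probes. The Alas1 probes lie on the same side of their own means on every array, whereas the Uros probes lie on opposite sides at old replicate 1.

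Alad, the second enzyme of the chain, had the smallest p of the members. It was at 4.23, 3.91, 4.68 and 4.92 in young replicates 1 to 4 and at 4.85, 5.14, 5.54 and 5.44 in old ones. Only old replicate 1 lay below the highest young liver. The difference was 0.81 (SE 0.27, 1.75-fold, adjusted p = 0.279) with an interval of 0.21 to 1.40. Leaving out young replicates 1 and 2 gave 0.44 (adjusted p = 0.617). The probe lay at chr4:62170231-62170290 (mm9), and another Alad probe, for a separate transcript record, was above background on 0 arrays.

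Uros, which closes the ring, was at 1.87, 2.39, 3.02 and 2.50 in young and at 2.51, 2.83, 3.57 and 3.46 in old livers, replicates 1 to 4 in order. Young replicate 3 lay above old replicates 1 and 2. The difference was 0.65 (SE 0.31, 1.57-fold, adjusted p = 0.383). Leaving out young replicates 1 and 2 gave 0.33. The Uros gene had 3 probes. The one used, at chr7:140878069-140878128 (mm9), and another at chr7:140889352-140889411, which differed by 0.96 (SE 0.32, adjusted p over probes = 0.285), were tested. They disagreed most on old replicate 1, which the other probe placed above all young livers. The remaining probe, directed at another transcript record, was above background on 0 arrays.

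Urod, which trims the ring's side chains, was at 5.50, 5.08, 5.78 and 6.07 in young and at 5.78, 5.93, 6.19 and 6.08 in old livers. The young values spread over 0.99 and the old over 0.41, and young replicate 4 was level with old replicate 4. The difference of 0.39 (SE 0.24, 1.31-fold, adjusted p = 0.458) was 0.07 without young replicates 1 and 2, and 0.21 without young replicate 2 alone. Young replicates 1 and 2 were the lowest of all 8 arrays.

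Cpox, the first of the oxidising enzymes, showed the widest gap between group means and the widest spread. It was at 2.91, 2.42, 4.18 and 4.01 in young and at 3.84, 4.24, 4.72 and 4.53 in old livers. Young replicates 1 and 2 lay more than 1 log2 unit below the other young arrays, and young replicates 3 and 4 lay above old replicate 1. The difference was 0.95 (SE 0.40, 1.93-fold, adjusted p = 0.345, interval 0.05 to 1.86), and it was 0.24 without those 2 arrays (adjusted p = 0.800) and 0.63 without young replicate 2 alone. The probe lay at chr16:58680403-58680465 (mm9). Another Cpox probe, above background on 3 young and 3 old arrays, differed by 0.42 (SE 0.42), and the last was above background on 0 arrays.

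Ppox, which makes protoporphyrin, was at 0.48, 0.47, 0.60 and 0.65 in young and at 0.53, 0.76, 0.91 and 0.93 in old livers. Its young values were tight, within 0.18, and 3 of 4 old livers lay above them all. The difference was 0.23 (SE 0.17, 1.18-fold, adjusted p = 0.532), or 0.16 with young replicates 1 and 2 left out and 0.13 under median scaling. The 60-base probe at chr1:173207452-173207629 (mm9) spans 178 bases of the genome and so crosses a splice junction. A second Ppox probe differed by 0.07 (SE 0.24).

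Fech, the iron-inserting enzyme that finishes heme, was the member whose groups did not overlap. It was at 4.97, 4.58, 4.93 and 5.08 in young livers and at 5.20, 5.17, 5.43 and 5.53 in old ones. The lowest old liver lay 0.09 above the highest young one. Groups parted in this direction for 4.63% of all genes, and in the opposite direction for 3.76%, against 1 and 0 of the 9 members. The difference was 0.44 (SE 0.19, 1.36-fold, adjusted p = 0.347; interval 0.02 to 0.86). Without young replicates 1 and 2 it was 0.33 (adjusted p = 0.618), the smallest change of the members as a ratio, 1.35 times. With each array's median in place of its 75th percentile the Fech groups overlapped, while under quantile scaling Fech and Alad both parted.

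Blvra, the main biliverdin reductase of adult tissue, had the smallest difference. It was at 0.52, 0.44, 0.51 and 0.79 in young and at 0.70, 0.67, 0.82 and 0.83 in old livers, and young replicate 4 lay among the old values. The difference was 0.19 (SE 0.17, 1.14-fold, adjusted p = 0.608) with an interval of -0.18 to 0.56, 0.10 without young replicates 1 and 2, and 0.08 under median scaling. A second Blvra probe differed by 0.04 (SE 0.19).

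Blvrb, the flavin reductase that also reduces biliverdin, was at 4.35, 4.23, 4.48 and 4.66 in young and at 4.08, 4.67, 5.14 and 5.40 in old livers. Here the old arrays were the more scattered, over 1.32 against 0.43, with old replicate 1 the lowest of all 8. The difference was 0.39 (SE 0.29, 1.31-fold, adjusted p = 0.525), and 0.25 without young replicates 1 and 2. It was 0.64 without old replicate 1 and 0.20 without old replicate 4.

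**Figure D3:**
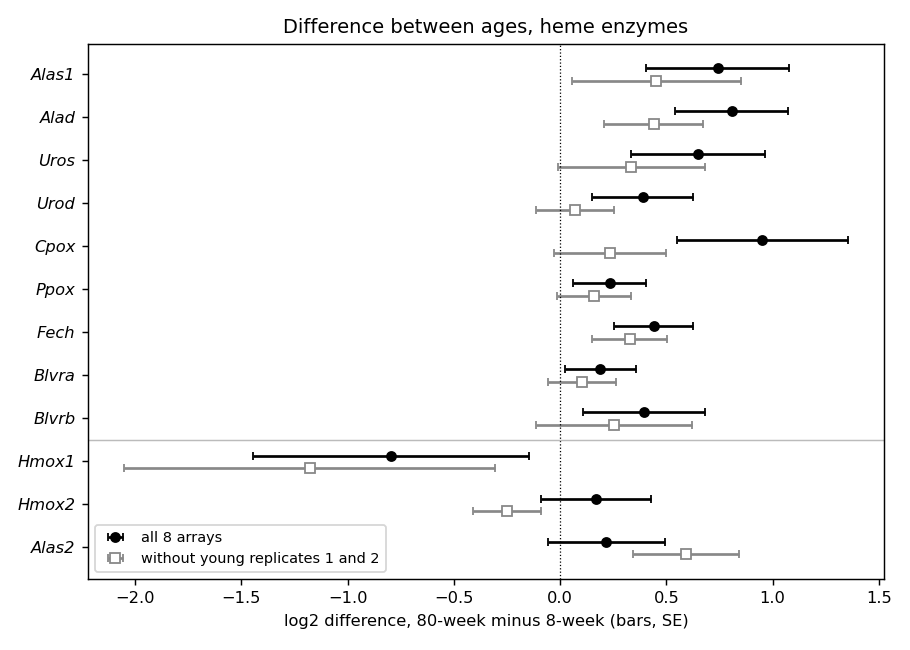
Log2 difference, 80-week minus 8-week, with its SE for the 9 members (above the grey line) and 3 other heme enzymes, from all 8 arrays (filled) and without young replicates 1 and 2 (open). All 9 members lie to the right of zero in both, from 0.19 to 0.95 and from 0.07 to 0.45, whereas Hmox2 crosses zero and Hmox1 stays to its left.

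The heme oxygenases and Alas2, 3 other enzymes of the pathway, did not pass either. Hmox2 differed by 0.17 (SE 0.26, adjusted p = 0.772), and by -0.25 without young replicates 1 and 2.

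Hmox1, the stress-induced heme oxygenase, differed by -0.80 (SE 0.65, adjusted p = 0.578). The difference was -0.09 without old replicate 3, and -1.18 without young replicates 1 and 2. It was at 8.25, 7.41, 8.58 and 8.61 in young and at 8.26, 8.60, 5.30 and 7.49 in old livers. Old replicate 3 lay more than 2 log2 units below every other array and was also the array with the highest Alas1, Alad, Uros, Urod and Cpox. The gap within arrays between Alas1 and Hmox1, on which scaling has no bearing, was 4.09 above the young mean on old replicate 3 and from -0.08 to 1.46 on the other old arrays. It spanned -0.60 to 0.78 on the young arrays. Between ages it differed by 1.54, with a two-sided exact permutation p = 0.143, where 70 arrangements allow no p below 0.0286, and this contrast was chosen after the values were seen.

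Alas2, the synthase of red cell precursors, differed by 0.22 (SE 0.27, adjusted p = 0.723), by 0.59 without young replicates 1 and 2, and by 0.39 without young replicate 1 and 0.01 without young replicate 3 alone. Red cell transcripts were measured beside it because blood in the tissue brings its own heme enzymes. Of 16 erythroid markers, 8 were tested, Alas2 itself and several globin genes among them, and 0 passed. Their median difference was -0.88, and 0.07 without those 2 arrays. Their summed level ran from 9.91 to 11.2 in young and from 8.30 to 10.6 in old livers. Hbb-b1, a beta globin gene, was at 6.15 and 6.14 in young replicates 1 and 2 and between 1.93 and 4.82 on the other arrays. Hbb-b2, Hbb-bt and Slc4a1 were also highest on those 2 arrays, whereas Hba-a1, Hba-a2, Alas2 and Ermap were not. Hba-a1 was at 9.19 on young replicate 2 and at 9.40 and 9.37 on old replicates 2 and 3. The summed level was 10.68 on young replicate 2 and 10.63 on old replicate 3. Slc25a37, the mitochondrial iron importer of red cell precursors, was highest on young replicates 1 and 2, at 5.08 and 4.14 against 2.14 to 3.30. The erythroid marker Epb42 was above background on 0 arrays. Values of the members were low on these 2 arrays. The part of red cell RNA in the members' differences was not tested.

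**Figure D4:**
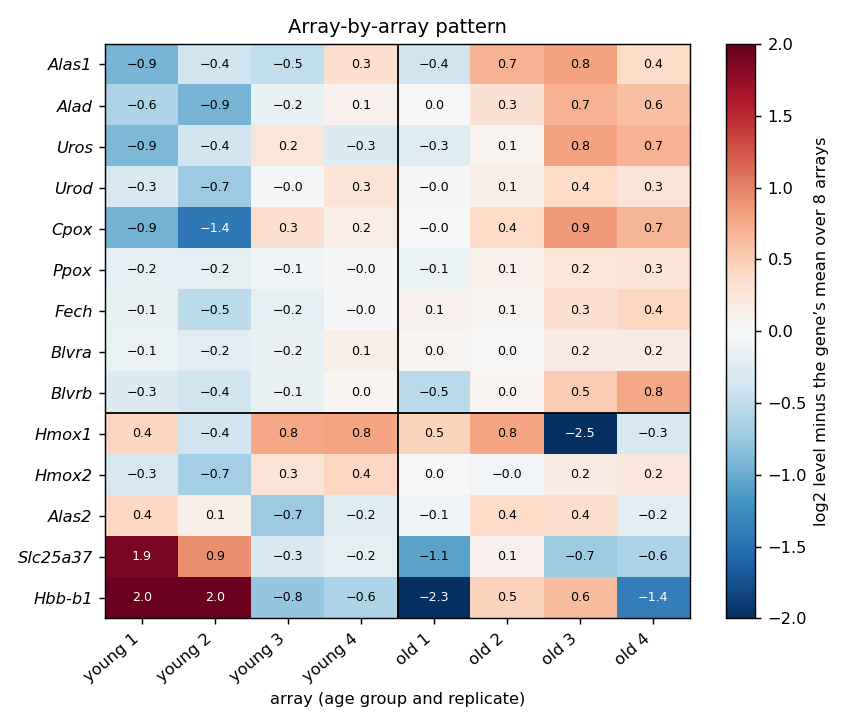
Log2 level minus the gene's mean over the 8 arrays, for the 9 members (above the line) and for Hmox1, Hmox2, Alas2, Slc25a37 and Hbb-b1, with 8-week arrays left and 80-week arrays right; colours saturate at 2. Young replicates 1 and 2 are below the mean for all 9 members and old replicates 2 to 4 above it, Hmox1 is lowest on old replicate 3, and Hbb-b1 is highest on young replicates 1 and 2.

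Across arrays the members moved much alike. All 9 lay below their own mean on young replicates 1 and 2, all 9 above it on old replicates 2, 3 and 4, and the counts above the mean were 2, 6 and 3 on young replicates 3 and 4 and old replicate 1. The members' median, centred per gene, was -0.30 and -0.40 on young replicates 1 and 2, and 0.51 and 0.42 on old replicates 3 and 4. Old replicate 3 held the highest value of 5 members and old replicate 4 that of the other 4. Within arrays, the gap of Alas1 to the median of the other 8 members, relative to its young mean, was -0.28, 0.66, -0.60 and 0.22 in young and -0.14, 0.47, 0.10 and -0.37 in old replicates 1 to 4. It went both ways in each group, with SDs of 0.56 and 0.36, and the means differed by 0.01.

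Of 12807 genes with plain symbols, the array pattern nearest to Alas1 was that of Dock8, with a root mean square difference of 0.17 over the 8 arrays, where Alas1 itself spread by 0.59. The level of Dock8 was low, from -3.60 to -2.53 in young and from -2.94 to -2.05 in old livers. Rpp40 and Rnd2 came next, both at a root mean square difference of 0.26. The nearest to Alad were Ift52 at 0.05, C4bp at 0.10 and Tmem64 at 0.10, where Alad spread by 0.52. These are descriptions over 8 arrays that share 1 slide, and how near the closest of so many genes comes by chance was not tested.

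Genes that feed, move and use heme gave no call either. Over 6 lists with 80 tested genes, 0 passed, and the lowest adjusted p was 0.172. The lists were chosen with earlier results of these data known. Over all genes, groups did not overlap for 4.63% with old higher and for 3.76% with old lower. Of the genes of these lists named below, Abcb10, Lrp1, Flvcr2, Rxra, Cyp7b1 and Cyp2c37 parted with old higher. Slc48a1 and Flvcr1 parted with old lower, and some unnamed listed genes parted too.

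Among 17 genes of mitochondrial supply, 15 differences were positive, with a median of 0.37, and of -0.02 without young replicates 1 and 2. Abcb10, a mitochondrial transporter needed for heme synthesis, differed by 0.75 (SE 0.24, adjusted p = 0.264), with 4 of 4 old livers above all young ones, and by 0.61 without young replicates 1 and 2. Slc25a37 differed by -1.16, and by -0.33 without them. Clpx, the unfoldase that activates the synthase, differed by 1.10, and by 0.12 without those 2 arrays. Suclg2, of the enzyme that handles succinyl-CoA, differed by 0.58, and by 0.29 without them.

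Among 12 genes of heme transport and scavenging, 7 differences were positive and the median was 0.19, or 0.00 without young replicates 1 and 2. Slc48a1, which moves heme out of lysosomes, was at 4.77, 4.94, 3.96 and 4.32 in young and at 3.21, 3.78, 3.39 and 3.66 in old livers, without overlap. Its difference was -0.99 (SE 0.25, adjusted p = 0.172), and -0.64 without young replicates 1 and 2. Lrp1, the receptor that takes up heme bound to hemopexin, differed by 0.74 (SE 0.19, adjusted p = 0.172), also without overlap, and by 0.52 without those arrays. Averaged over its tested probes, Lrp1 differed by 0.25 (adjusted p = 0.637). The heme exporter Flvcr1 differed by -0.82 and its relative Flvcr2 by 1.36, with adjusted p of 0.287 and 0.290, and by -0.42 and 0.56 without those arrays.

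Among 13 tested regulators of Alas1 and Hmox1, 10 differences were positive with a median of 0.63, or 0.13 without young replicates 1 and 2. Ppargc1a, a coactivator that drives Alas1 in fasting, differed by 1.16 (SE 0.46, adjusted p = 0.329), and by 0.76 without those arrays. Foxo1 differed by 0.63, Rxra by 0.63 and Nr1d1, a clock repressor, by 1.25. Without young replicates 1 and 2 these were 0.39, 0.27 and 0.35. Nrf1, whose letters stand in the Alas1 and Uros excerpts printed above and which was singled out for that reason after its values were seen, differed by -0.41 (SE 0.26, adjusted p = 0.475), and by -0.09 without those arrays.

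Among 5 tested genes of the list for bilirubin uptake, conjugation and export, all 5 differences were positive, with a median of 0.29, or -0.07 without young replicates 1 and 2. All 5 encode transporters. Ugt1a1, the conjugating enzyme of the list, had no probe under that name, so conjugation was not measured. The hepatocyte uptake carrier Slco1b2 differed by 1.10 (SE 0.45, adjusted p = 0.338), and by 0.46 without them. Among 30 heme-containing proteins, mostly P450 enzymes, 23 differences were positive with a median of 0.33, and 11 with a median of -0.13 without those arrays. Cyp7b1, a sterol hydroxylase, differed by 2.03 (SE 0.52, adjusted p = 0.172), Cyp2c37 by 1.64 and Cyp2c70 by 1.24, and without those arrays by 1.37, 1.42 and 1.02. Cyp1a1, an enzyme induced through the aryl hydrocarbon receptor, was above background on 3 young arrays and 1 old array. Its difference rests on dim signal and was -1.38 as processed here, -1.01 without young replicates 1 and 2, and -0.28 with normexp background correction.

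**Figure D5:**
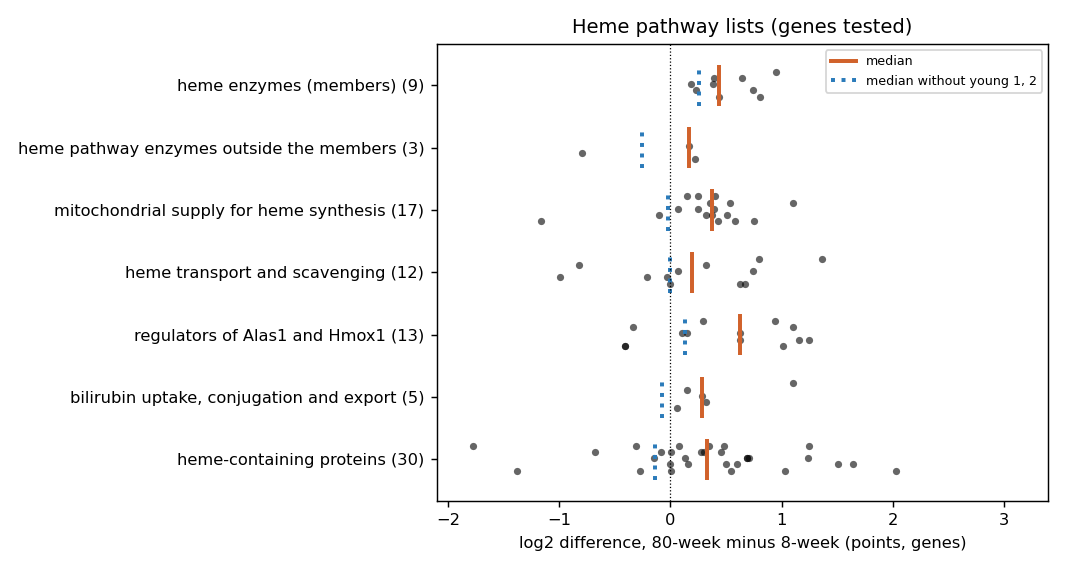
Log2 difference, 80-week minus 8-week, of every tested gene (points) in the members and 6 other heme lists, with the median of all 8 arrays (solid) and without young replicates 1 and 2 (dotted). The members' median goes from 0.44 to 0.25 when those arrays are left out, and that of heme-containing proteins from 0.33 to -0.13.

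Markers of position and of other cells gave these values beside the members. Of 11 tested pericentral hepatocyte genes, all 11 were positive and 1 passed (Slc1a2, 4.39, SE 0.57, adjusted p = 0.0127), with a median of 1.95, or 1.24 without young replicates 1 and 2. Slc1a2 differed by 4.38 without them (adjusted p = 0.202). Of 11 periportal genes 6 were positive and 0 passed, with a median of 0.00, or -0.50 without those arrays. Kupffer cells, which recycle heme from red cells, had 9 markers tested, 8 positive and 0 called, with a median of 0.36, or 0.40 without those arrays, and summed levels from 6.07 to 7.44 in young and from 6.35 to 8.13 in old livers. Medians of the remaining marker lists ran from -0.43 (cholangiocyte) to 0.69 (T cell and NK cell), each of these with only 2 genes tested. Without young replicates 1 and 2 the range was -0.45 (sinusoidal endothelial cell) to 0.41 (T cell and NK cell), with cholangiocyte at -0.17. The only called gene of these lists, on all 8 arrays, was the B cell list's Jchain, the antibody joining chain. The part of these cells in the members' differences was not tested.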

How the data were processed

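Agilent Feature Extraction made the scanner files. Their headers give build mm9 and 10.7.3.1 as the version of the grid placement. The submitters' processing notes give 9.1 as the version of Feature Extraction. The deposited spot intensity values were already background-corrected. The authors' deposited table of intensity values matched them within 1% for 100% of 56605 probes, held 0 columns of other samples, and served as an alternative. Here, log2 values were taken, outlier spots (59 to 97 per array) left out, spots of one probe averaged, and each array's 75th percentile subtracted. Probes entered the test if 4 or more of the 8 arrays had them well above background, on any spot, and the brightest such probe stood for a gene. The age comparison used lmFit and eBayes of limma 3.58.1 (R 4.3.3) over all 17567 genes, with Benjamini-Hochberg adjustment at 0.05. The fit was also run on simulated data, whose outcome is not reported here and is not used as support. The number of arrays limits the precision. Named were all members, Alas2, Hmox1, Hmox2, up to 4 genes of smallest p per heme list and up to 2 per marker list, and the 3 genes nearest in array pattern to Alas1 and to Alad. Also named were the tested erythroid markers, Epb42 and Ugt1a1. Some listed genes are not reported here. Members, lists and alternatives were chosen with earlier results of these data known. Alternatives were normexp background correction (offset 50), quantile and median scaling, other dim-probe filters, averaged probes, a trended robust prior, array weights, the replicate block, retained outlier spots, the deposited table and omitted arrays.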

Additional observations from a re-analysis of the deposited data

How the results depend on the processing

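Over 21 alternatives, all 189 differences of the 9 members stayed positive and 0 passed, with adjusted p from 0.151 to 0.921, so 0 members were called higher and 0 lower under each. The other dim-probe filters, the trended robust prior and the replicate block left the members' differences exactly as in the main fit. Retained outlier spots and the deposited table left them nearly so. The signs under these settings were fixed in advance, and the count of 189 is not one of separate checks. Leaving out 1 array at a time gave 0 calls throughout. The replicate number, which is also the slide column, is not stated to pair the arrays. Same-numbered arrays had deviations correlated at 0.03, 0.14, 0.11 and 0.10, so 1 of 4 pairs fell short of the 0.1 asked of every pair, and not every array correlated best with its own number. With the replicate block the lowest adjusted p was 0.151 (Alad), and counts over all genes were 53 higher and 17 lower against 58 and 5. Median scaling moved every gene alike and the median of all genes from 0.02 to -0.09. The members' median stood 0.42 above that of all genes, 0.31 above it without young replicates 1 and 2, 0.25 when dim probes were kept, and 0.63 without old replicate 1. Outside the members, the sign turned for Hmox2 (-0.16 with array weights, -0.25 without young replicates 1 and 2, and from -0.0268 without young replicate 2 to 0.336 without young replicate 4 when 1 array was left out) and for Hbb-b1 (0.0882 and 0.061). Signs also turned for other listed genes. Without young replicates 1 and 2, positive differences went from 15 to 7 of 17 genes of mitochondrial supply and from 23 to 11 of 30 heme-containing proteins. They went from 5 to 2 of 5 bilirubin genes, from 10 to 8 of 13 regulators and from 7 to 6 of 12 transport genes. The cause of these turns was not tested. Counts over all genes were 136 higher and 36 lower with array weights, 20 and 1 with probes above background on all 8 arrays, 25 and 2 without young replicate 1, 33 and 5 without old replicate 3, 35 and 4 without old replicate 4, and 12 and 2 without young replicates 1 and 2. Without young replicates 1 and 2, young rests on 2 arrays.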

Other observations

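A test for an array far from the other 3 of its group flagged 0 of 24 groups of 4 values. The groups were 12 heme enzymes in each age, and chance passes the test in about 5% of groups. Old replicate 3 was not flagged for Hmox1, at 5.30 against 7.49 to 8.60 on the other old arrays. The lack of flags therefore does not show that no array stood apart. A pair of arrays with like values also escapes the test, such as young replicates 1 and 2 for Cpox.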
